A study of Mus musculus with 59 samples.

Results

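The Xlr genes (X-linked, lymphocyte-regulated) Xlr3a, Xlr3b, Xlr3c, Xlr4a, Xlr4b, Xlr4c, Xlr5a, Xlr5b and Xlr5c are 9 of the 22134 genes with a counted transcript in single mouse epiblasts at E6.25. They were taken by gene symbol, and each is represented by the transcript with the highest mean count over all epiblasts. RNA was sequenced from 14 epiblasts of a mixed background, dissected from litters of heterozygous intercrosses. In the Ehmt2 cross, 4 Ehmt2-/- epiblasts were set against 4 controls, and in the Ezh2 cross 3 Ezh2-/- epiblasts against 3 controls. The labels give the controls as G9a+/+ and Ezh+/+, whereas the study's text counts heterozygotes among controls as well. The knockouts lacked the gene in the whole embryo, so an effect on the epiblast cannot be told apart from one that began in the extraembryonic tissues. Each value comes from 1 epiblast, and a lower share of a cell type cannot be told apart from less RNA per cell.

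Xlr proteins are nuclear and share the Cor1/Xlr/Xmr domain with SYCP3, a component of the synaptonemal complex that holds homologous chromosomes together in meiosis. The family is known for expression in lymphoid cells and the germline, and Xlr3b, Xlr4b and Xlr4c are known as imprinted genes that are expressed from the maternal X chromosome in the brain. EHMT2 (G9a) is the methyltransferase that places dimethylation on lysine 9 of histone H3, and EZH2 is the catalytic subunit of Polycomb repressive complex 2, which methylates lysine 27 of the same histone. The comparisons ask how the transcripts of this family stood in the epiblast, the pluripotent layer that forms the embryo proper, when either enzyme was missing.

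All 9 genes lie in one stretch of the X chromosome, chrX:73074345-73292976 in GRCm38, which spans 218632 bp. In GRCm38, Xlr4a lies at chrX:73074345-73082478, Xlr3a at chrX:73086293-73097095, Xlr5b at chrX:73148796-73158872, Xlr3b at chrX:73192207-73202930, Xlr4b at chrX:73214333-73222453, Xlr4c at chrX:73233688-73243130, Xlr3c at chrX:73254540-73265390 and Xlr5c at chrX:73282896-73292976. Xlr5b, Xlr3b and Xlr4b are on the plus strand and the others on the minus strand. The annotated span of Xlr5a, chrX:73107635-73292976, reaches across the other genes to the end of Xlr5c, because one of its isoforms does. The representative transcripts were ENSMUST00000172709 for Xlr3a and ENSMUST00000137641 for Xlr3b, both annotated as retained introns, and protein-coding transcripts for the other 7 genes.

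The copies of a subfamily are nearly identical, and this limits how far a count can be tied to one gene. Between copies of the same subfamily, the coding sequences were 96.0% to 99.5% identical (median 99.2%, 9 pairs), against 50.1% to 56.2% between subfamilies (27 pairs). For each subfamily, the 60-base coding stretch within 1 exon that differs at most positions is shown, with the differing bases in capitals, since these are the letters by which a read could be assigned. The Xlr3 stretch lies at chrX:73089435-73089494 (minus strand) in Xlr3a, chrX:73199750-73199809 (plus) in Xlr3b and chrX:73257671-73257730 (minus) in Xlr3c, and its 3 differences all set Xlr3a apart from the other copies.
Xlr3a: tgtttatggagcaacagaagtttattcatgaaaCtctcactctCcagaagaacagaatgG
Xlr3b: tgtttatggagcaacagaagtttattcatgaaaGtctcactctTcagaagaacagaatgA
Xlr3c: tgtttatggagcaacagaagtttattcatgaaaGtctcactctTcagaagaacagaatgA
The Xlr4 stretch lies at chrX:73074847-73074906 (minus) in Xlr4a, chrX:73221891-73221950 (plus) in Xlr4b and chrX:73234581-73234640 (minus) in Xlr4c, and 3 of its 60 bases differ.
Xlr4a: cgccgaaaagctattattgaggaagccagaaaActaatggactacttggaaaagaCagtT
Xlr4b: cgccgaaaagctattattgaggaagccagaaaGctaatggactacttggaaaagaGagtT
Xlr4c: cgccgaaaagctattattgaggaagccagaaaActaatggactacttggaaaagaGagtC
The Xlr5 stretch lies at chrX:73115181-73115240 (minus) in Xlr5a, chrX:73151257-73151316 (plus) in Xlr5b and chrX:73290456-73290515 (minus) in Xlr5c. It differs at 2 positions, both of which set Xlr5c apart.
Xlr5a: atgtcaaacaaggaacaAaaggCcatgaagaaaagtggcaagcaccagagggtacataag
Xlr5b: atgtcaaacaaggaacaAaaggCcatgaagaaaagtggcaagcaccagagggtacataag
Xlr5c: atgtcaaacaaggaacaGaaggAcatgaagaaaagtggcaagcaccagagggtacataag

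The reads had been trimmed to 40 nt, and windows of that length were compared with all transcripts of the annotation. Windows found in no other gene made up 10.5% of the Xlr5a transcript, 7.87% of Xlr5b and 11.9% of Xlr5c. In the Xlr4 subfamily, they made up 24.8% of Xlr4a, 23.0% of Xlr4b and 43.1% of Xlr4c. For Xlr3a, Xlr3b and Xlr3c the shares were 44.1%, 38.0% and 22.6%, the first and second of them in long retained-intron transcripts. In their protein-coding transcripts, the share fell to 22.0% in Xlr3a and 4.39% in Xlr3b. Most shared windows lay within the subfamily: the Xlr5b transcript had 78.9% of its windows in Xlr5a and 80.5% in Xlr5c, and none of the Xlr5 transcripts shared a window with Xlr3 or Xlr4. The windows were also sought on the genome, to which the reads were aligned, and those not found there in one piece were left out. Found were 3522 of 3744 windows in Xlr3a and 832 of 1123 in Xlr4a, so the next shares are not of all windows. Of the windows found, 71.5% in Xlr3a, 84.3% in Xlr3b and 86.7% in Xlr3c lay at 2 or more places. In Xlr4a, Xlr4b and Xlr4c the shares were 78.4%, 89.3% and 79.3%. For Xlr5a, Xlr5b and Xlr5c these shares were 90.7%, 95.7% and 90.5%. How reads with several equal alignments were counted is not given in the sources used here, so the values of single copies are uncertain, and a read of one copy may have been counted on another.

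**Figure D1:**
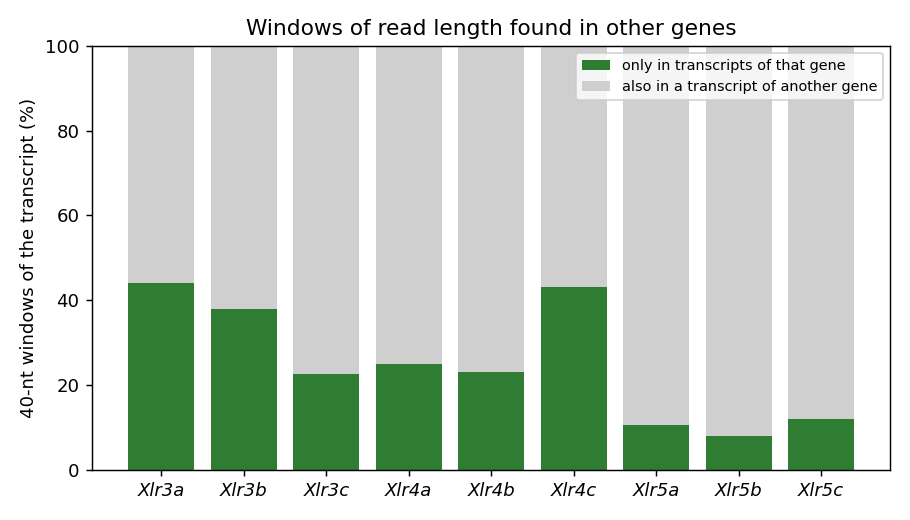
Share of the 40-nt windows of each representative transcript (bars, percent of windows, 1 bar per gene) that occurs only in transcripts of that gene (green) or also in a transcript of another gene (grey). The green part is smallest in the 3 Xlr5 genes, at 7.87% to 11.9%.

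Each epiblast had 30161171 to 68464895 counts over all listed transcripts, or 12495094 to 28434545 when 1 transcript per gene was kept. Ehmt2 control 4 and knockout 4 stood apart from the other libraries: they had the most counts (62589918 and 68464895), the fewest listed transcripts (57926 and 56476, against 59566 to 63240) and the only rows of unaligned reads. The chi-square of their counts against replicates 1 to 3 of their group was 146 to 192 per degree of freedom, beside 16.7 to 31.0 among those replicates. Levels are given as CPM, counts scaled to a common library size after edgeR's TMM correction within each cross. The Ehmt2 transcript was lower in the Ehmt2-/- epiblasts (log2 fold change -1.63, SE 0.21, adjusted p = 0.00454), and the Ezh2 transcript was lower in the Ezh2-/- epiblasts (-2.52, SE 0.27, adjusted p = 0.0160), in edgeR's quasi-likelihood test with Benjamini-Hochberg adjustment. Epiblast markers (Pou5f1, Nanog, Sox2, Otx2, Fgf5, Utf1 and Dnmt3b) summed to 2357 to 2701 CPM in the Ehmt2 controls and 1390 to 2087 CPM in the Ehmt2-/- epiblasts.

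In control epiblasts the family was at the lower end of what these libraries can count. The 4 Ehmt2 controls together held 265 counts on the 9 representative transcripts, of which 117 (44.2%) lay on Xlr3b and 74 (27.9%) on Xlr3a. Per kilobase of transcript, Xlr3b was highest at 0.171 ± 0.110 CPM (SD, n = 4), followed by Xlr4a at 0.123 ± 0.112 and Xlr3a at 0.115 ± 0.0828. Xlr5c was lowest at 0.00396 ± 0.00792 CPM per kilobase, from a single count in 1 of the 4 epiblasts. Each of the 8 pairs of neighbours in this order overlapped in range, so the order of adjacent genes was not resolved. With the protein-coding transcripts of Xlr3a and Xlr3b, the values were 0.257 ± 0.171 and 0.194 ± 0.0706 CPM per kilobase, and Xlr3a came first. In the 3 Ezh2 controls, 159 counts were spread in a similar way, with 51 (32.1%) on Xlr3a, 48 (30.2%) on Xlr3b and 0 on Xlr5c. A count of 0 in an epiblast allows a level of up to 3 counts. By raw library totals this was 0.0438 CPM in the deepest library and 0.0995 CPM in the shallowest. Unlike the other levels, these 2 values are without the TMM correction, so they match that scale only roughly. These limits cover counting error only.

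The first comparison asked which members changed in epiblasts without EHMT2. All 9 members had a higher mean in the knockouts, and 8 of them were higher in each of the 4 Ehmt2-/- epiblasts than in every control. By edgeR's test, Xlr3a, Xlr5a, Xlr5b and Xlr5c were called higher, at an adjusted p under 0.05 and a log2 fold change above 1.4. That is 4 of the 8 members that passed the filter on low counts (Xlr3c did not), and none was lower. Over all tests of this fit, 0.441% of transcripts were called higher, and 0.786% when only 1 transcript per gene was considered. Of these genes, 51.1% had a positive log2 fold change and 3.59% were higher in every knockout than in every control. The median log2 fold change of the 8 members was 3.84 (range 1.06 to 6.54), beside 0.01 over the representative transcripts of all 13749 genes tested. A member with near-0 controls could pass the filter only through its knockouts, and the copies share reads, so the members are not independent observations.

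**Figure D2:**
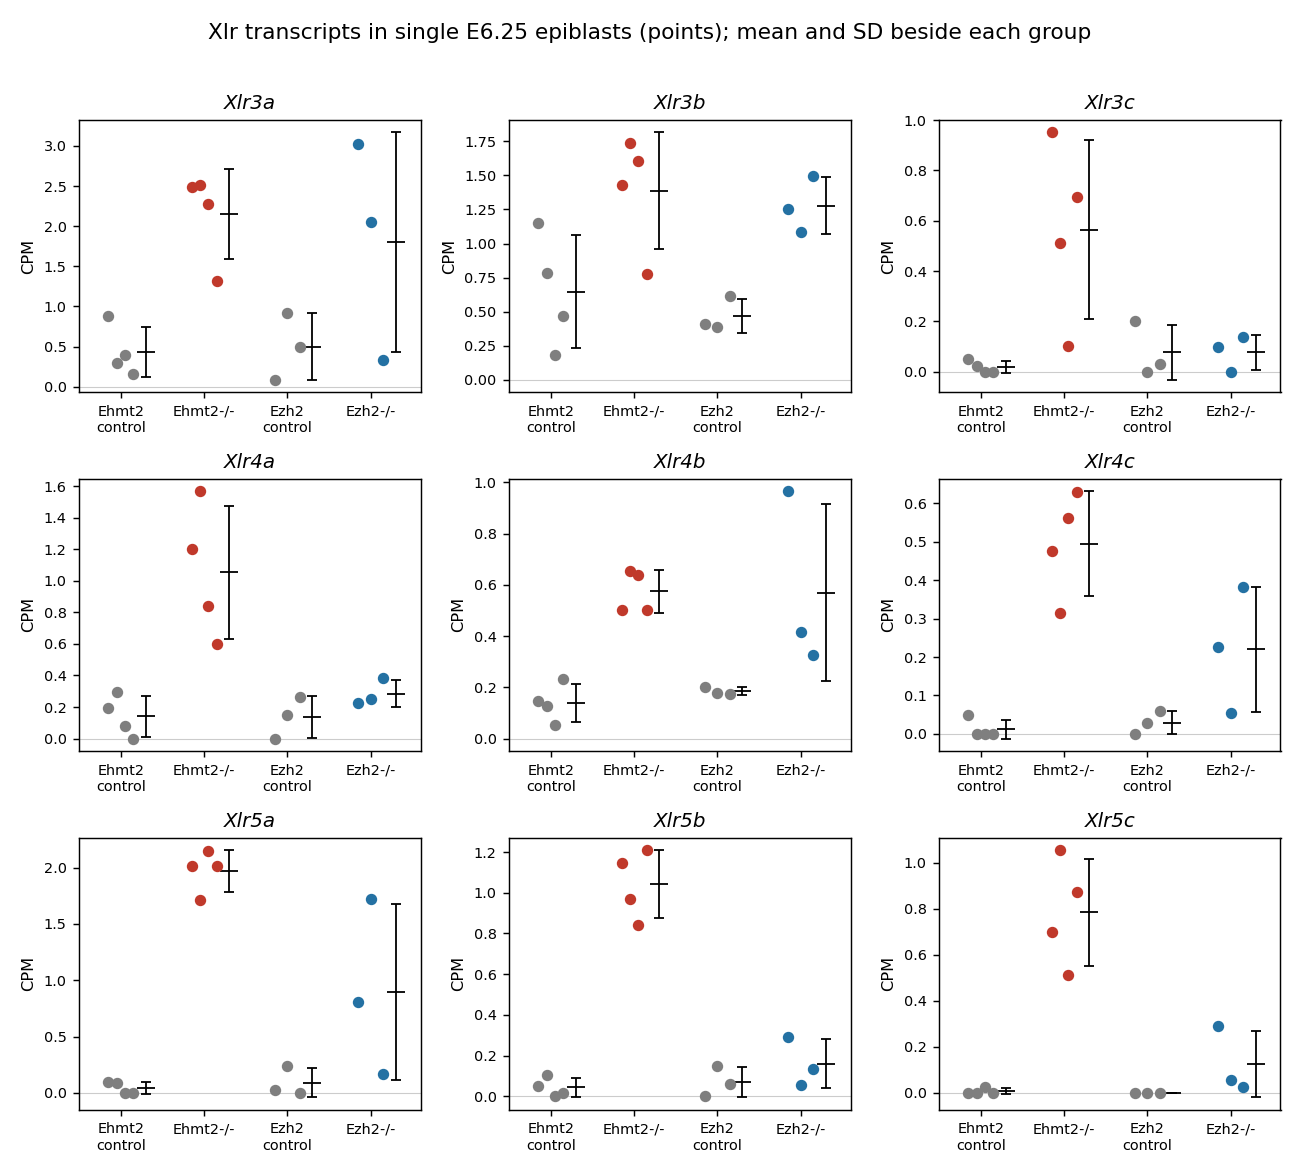
CPM of the representative transcript of each Xlr gene (vertical axis, linear, scaled per panel) in each of the 14 epiblasts (points) by group, with the group mean and SD (black bar) beside the points. In the Ehmt2 cross the knockout points lie above every control point in all panels except Xlr3b.

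The Xlr5 genes had almost no counts in controls and were counted in every knockout. In Ehmt2 controls 1 to 4, Xlr5a stood at 0.0979, 0.0846, 0 and 0 CPM, and in Ehmt2-/- epiblasts 1 to 4 at 2.01, 1.71, 2.14 and 2.02 CPM. The knockouts were close to each other and well apart from the controls. Its fitted log2 fold change was 5.46 (SE 0.83, adjusted p = 0.0133), and its share of the family's counts went from 3.02% of 265 in controls to 20.2% of 1684 in knockouts. Xlr5b had 0.0490, 0.106, 0 and 0.0180 CPM in the controls and 1.15, 0.969, 0.843 and 1.21 CPM in the knockouts. The fold change of Xlr5b was 4.51 on the log2 scale (SE 0.83, adjusted p = 0.0365), from 8 counts in all controls to 183 in all knockouts. Xlr5c had 1 count in control 3 and none in the other controls, against 25, 37, 20 and 54 counts in the knockouts (0.699, 1.05, 0.511 and 0.871 CPM). Every knockout was again above every control. With so few control counts the ratio of the pooled levels, 144, has an exact 95% interval from 25.4 to 5716 for counting error alone. The fitted value was 6.54 (SE 1.01, adjusted p = 0.0144). Summed over the 3 genes, controls averaged 0.0954 ± 0.0865 CPM against 3.80 ± 0.251 in knockouts (SD, n = 4 per group), a ratio of 39.8.

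The Xlr4 genes were higher in the knockouts as well, and none of the 3 passed the threshold of edgeR's test. For Xlr4a, controls 1 to 4 gave 0.196, 0.296, 0.0787 and 0 CPM, and knockouts 1 to 4 gave 1.20, 1.57, 0.843 and 0.597 CPM (log2 fold change 3.17, SE 0.80, adjusted p = 0.120). Xlr4b had 6, 6, 2 and 13 counts in the controls against 18, 23, 25 and 31 in the knockouts, or 0.140 ± 0.0748 against 0.574 ± 0.0840 CPM (2.06, SE 0.67, adjusted p = 0.237). In both genes the groups did not overlap. Xlr4c had 2 counts in control 1 and none in controls 2 to 4, and 17, 11, 22 and 39 counts in the knockouts (0.476, 0.314, 0.562 and 0.629 CPM). Its fitted log2 fold change was 5.14 (SE 1.07, adjusted p = 0.0588), and the ratio of pooled levels was 47.0 with an exact 95% counting interval from 12.6 to 394. DESeq2's Wald test called Xlr4a (adjusted p = 0.00433) and Xlr4c (adjusted p = 0.0100) in addition to the 4 genes named above. Xlr4 levels summed to 0.295 ± 0.137 CPM in controls against 2.12 ± 0.336 in knockouts (SD, n = 4 per group), a ratio of 7.19.

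Of the 3 subfamilies, Xlr3 had the highest summed level in controls and the smallest ratio of summed levels. These sums are not scaled by transcript length, and Xlr3a and Xlr3b made up nearly all of the Xlr3 control counts (74 and 117, against 3 for Xlr3c). For Xlr3a, controls 1 to 4 gave 0.881, 0.296, 0.394 and 0.162 CPM, and knockouts 1 to 4 gave 2.49, 2.51, 2.27 and 1.32 CPM, with no overlap (log2 fold change 2.39, SE 0.48, adjusted p = 0.0483). This call was lost with the protein-coding transcript of Xlr3a (2.31, adjusted p = 0.0598) and when only 1 transcript per gene was fitted (2.38, adjusted p = 0.0508), where Xlr4c was called instead (adjusted p = 0.0461). Xlr3b had 1.15, 0.783, 0.184 and 0.469 CPM in the controls and 1.43, 1.74, 1.61 and 0.774 CPM in the knockouts. Knockout 4 lay below controls 1 and 2, and the difference of Xlr3b did not pass the threshold (1.06, SE 0.55, adjusted p = 0.494). In the protein-coding transcript of Xlr3b, chosen after the data were seen, the knockouts did not overlap the controls (0.303 ± 0.110 CPM in controls against 1.21 ± 0.372 in knockouts, SD, n = 4 per group), and the log2 fold change was 1.93 (SE 0.53, adjusted p = 0.153). Xlr3c had 2, 1, 0 and 0 counts in the controls and 34, 18, 4 and 43 counts in the knockouts. This gene failed the filter and was not tested in the main fit. Its pooled ratio was 34.9 (exact 95% counting interval 11.6 to 172), and without the filter its log2 fold change was 4.87 with an adjusted p of 0.0728. Xlr3 levels summed to 1.10 ± 0.696 CPM in controls against 4.10 ± 0.958 in knockouts (SD, n = 4 per group), a ratio of 3.74.

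Among the knockouts, Xlr5a led with 1.19 ± 0.112 CPM per kilobase (SD, n = 4), before Xlr4a with 0.906 ± 0.365 and Xlr5b with 0.631 ± 0.102. Xlr3b, first in the controls, was seventh of the 9 genes at 0.367 ± 0.113 CPM per kilobase, and Xlr4c was last at 0.330 ± 0.0909. Neighbours in this order overlapped in range in all 8 pairs. The places of Xlr3a and Xlr3b rest on the length of their retained-intron transcripts: by the protein-coding ones, Xlr3a had 1.20 ± 0.276 and Xlr3b 0.772 ± 0.238 CPM per kilobase, which puts Xlr3a level with Xlr5a.

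**Figure D3:**
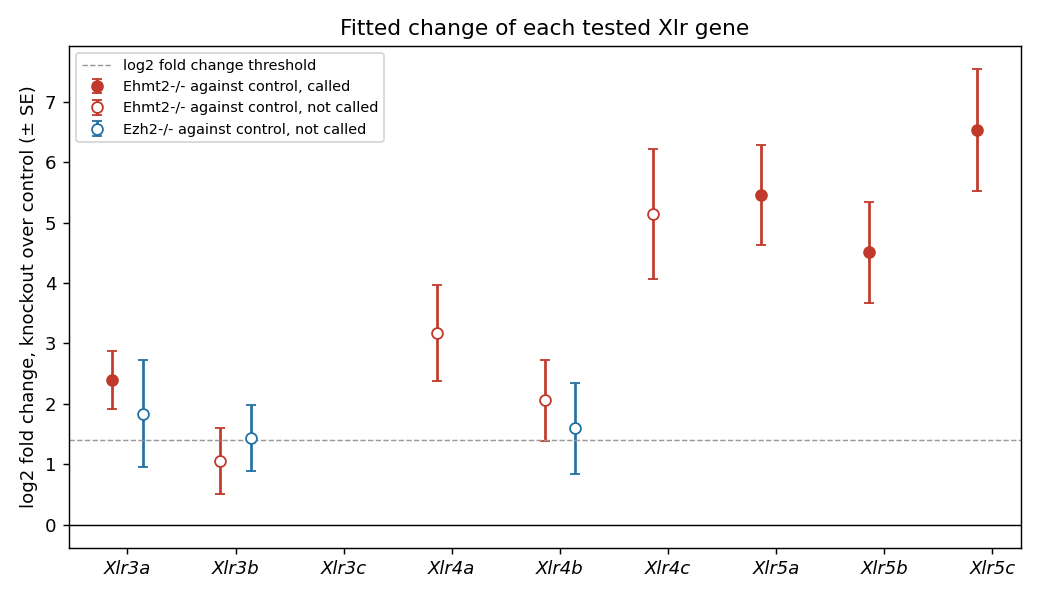
Fitted log2 fold change of knockout over control (vertical axis, ± SE) for each Xlr gene tested in the Ehmt2 cross (red, 8 genes) and in the Ezh2 cross (blue, 3 genes), with filled points for genes called higher. The 4 filled points are Xlr3a, Xlr5a, Xlr5b and Xlr5c in the Ehmt2 cross, and no gene of the Ezh2 cross is filled.

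Each knockout was also compared by itself, with controls 1 to 3 as the reference for knockouts 1 to 3, and control 4 for knockout 4. A gene passed this rule with a log2 fold change beyond 1.4 in every knockout, a Fisher-combined p under 0.05 and at least 5 normalised counts in every knockout. The spread came from controls 1 to 3 alone, knockout 4 was set against a single control, and knockouts 1 to 3 shared their controls, so the combined p is not that of independent tests and the outcome is given as a description. Xlr3a, Xlr4a, Xlr4c, Xlr5a, Xlr5b and Xlr5c passed, 6 of 8 members, where 0.887% of all genes (1 transcript each) and 0.565% of all transcripts did. For Xlr5a the 4 log2 fold changes were 4.95, 4.71, 5.04 and 9.48, the last against a control at 0. Xlr4b missed the rule through knockout 4 (1.08), and Xlr3b had between 0.72 and 1.29. The protein-coding transcript of Xlr3b, with 1.49 to 2.14, did pass the rule. With all 4 controls as the reference of every knockout, 7 members passed, Xlr4b being the one added.

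How firmly the 4 calls of the group test stand depends on single epiblasts and on the term that separates replicate 4. Without that term only Xlr5c was called (adjusted p = 0.0442), and with replicates 1 to 3 alone Xlr5a (adjusted p = 0.0106) and Xlr5c (adjusted p = 0.0249) were. Xlr5a kept its call when any of the 8 epiblasts was left out, with an adjusted p between 0.00814 and 0.0465 in edgeR's test. Xlr5c lost it in 4 of the 8 omissions (without control 1, 2 or 3 or knockout 2, adjusted p up to 0.0759), and Xlr5b in 7 (up to 0.113). Xlr3a lost it in 7 as well (up to 0.160), all but that of control 1. Their log2 fold changes stayed positive, at 6.09 or more for Xlr5c, 4.12 or more for Xlr5b and 2.20 or more for Xlr3a. When control 4 or knockout 4 was left out, the term for replicate 4 took up the other epiblast of the pair. Both of these omissions thus rest on replicates 1 to 3 and are not separate checks.

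Markers of trophoblast and of sex differed between these epiblasts. Of 9 extraembryonic ectoderm and trophoblast markers, 3 (Elf5, Tfap2c and Sox21) were called higher in the Ehmt2-/- epiblasts. A positive log2 fold change was found for 8 of the 9 (median 2.51) and for 51.1% of all genes tested. Summed, the list ranged from 30.7 to 134.7 CPM in controls and from 34.3 to 281 CPM in knockouts. Its mean log2(CPM + 0.5) was 2.83 to 4.07 in knockouts 1 to 3 and 0.24 in knockout 4, against 0.49 to 1.28 in controls, and its part in the Xlr differences was not tested beyond the covariate. Elf5, a transcription factor of the extraembryonic ectoderm, had 59.6, 5.79, 12.0 and 0 CPM in knockouts 1 to 4 and at most 0.525 CPM in a control. Cdx2, another trophoblast factor, was at 0 in both knockout 4 and control 4. In that pair, the libraries that stood apart in depth and listed transcripts, Xlr5a had 125 counts in the knockout and 0 in the control. Xlr3c, Xlr4a, Xlr4c and Xlr5c had 43, 37, 39 and 54 counts in knockout 4, each against 0 in control 4. Xlr3a was 8.15 times and Xlr5b 67.1 times as high in knockout 4, the latter against 1 control count. Xlr3b and Xlr4b differed least in this pair, with ratios of 1.65 and 2.13. With the level of the trophoblast list as a covariate, Xlr5a (adjusted p = 0.0407) and Xlr5c (adjusted p = 0.0487) stayed past the threshold, and Xlr3a and Xlr5b did not.

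The Y-linked genes Ddx3y, Eif2s3y, Kdm5d and Uty summed to 54.0, 71.9 and 73.9 CPM in Ehmt2 controls 2 and 4 and knockout 4, and to at most 0.416 CPM in controls 1 and 3 and knockouts 1 to 3. Both genotypes thus held epiblasts with and without Y-linked transcripts, although in unequal numbers. Among the epiblasts without them, each of the 3 knockouts was above both controls for all 9 members. Among those with them, 8 of 9 members were higher in the 1 knockout than in both controls, Xlr3b being the exception. In that comparison Xlr5a had 2.02 CPM in the knockout and 0 to 0.0846 CPM in the controls. The share of all genes with such a separation was not computed for either set, and the copies share reads. These counts of members therefore have no background to be read against. With the Y-linked level as a covariate, 0 of 8 members were called: the adjusted p of Xlr5a was 0.0513, of Xlr5b 0.0609, of Xlr5c 0.0734 and of Xlr3a 0.188, with log2 fold changes of 5.93, 5.41, 6.24 and 2.22. In the same fit 86 transcripts were called higher, beside 220 without the covariate. No listed transcript matched Xist, so the number of active X chromosomes was not assessed.

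**Figure D4:**
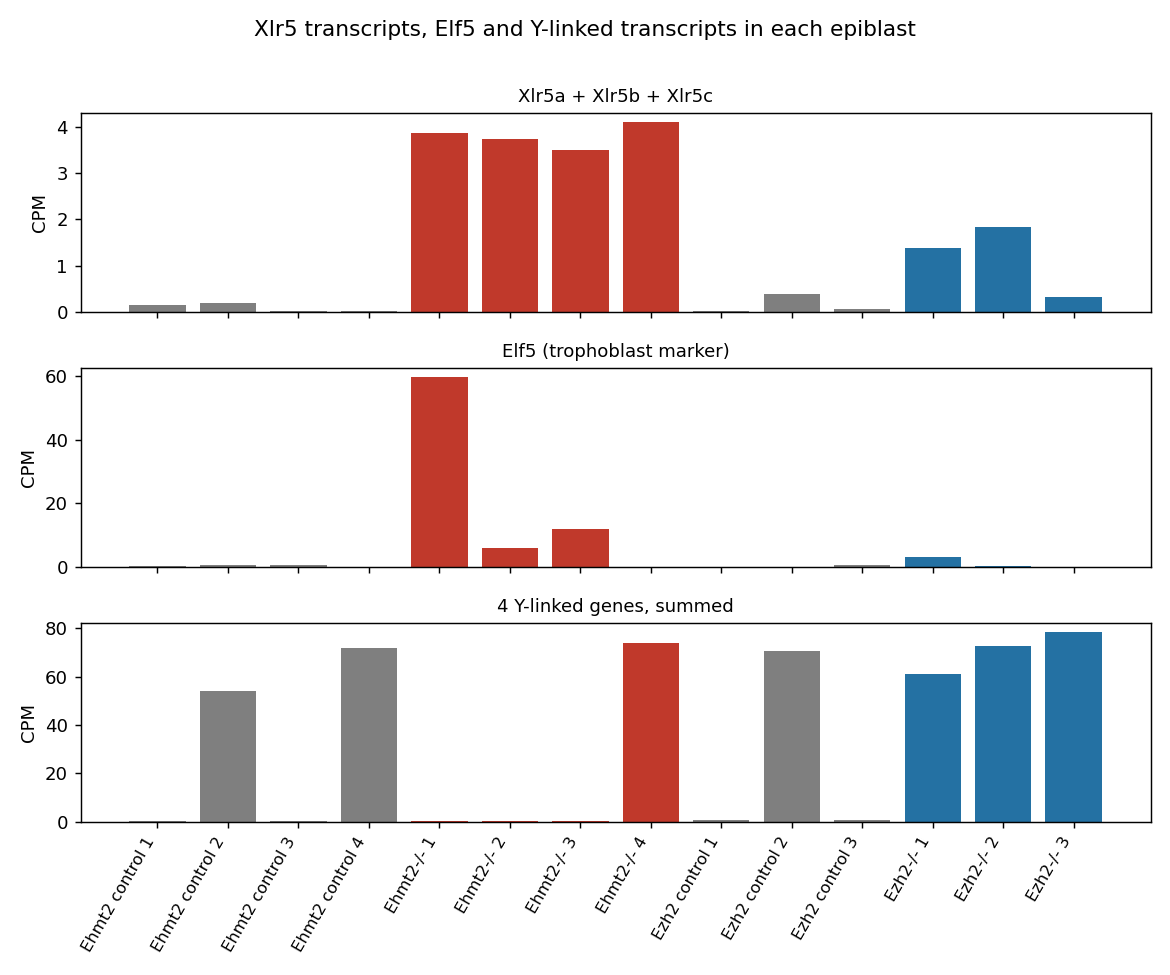
Summed CPM of Xlr5a, Xlr5b and Xlr5c (top), CPM of Elf5 (middle) and summed CPM of 4 Y-linked genes (bottom) in each of the 14 epiblasts (bars, linear axes from 0; grey controls, red Ehmt2-/-, blue Ezh2-/-). The Xlr5 sum is 3.50 to 4.10 CPM in all 4 Ehmt2-/- epiblasts, whereas Elf5 is at 0 and Y-linked transcripts are high in knockout 4.

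In the Ezh2 cross none of the members was called. The mean level was higher in the knockouts for 9 of 9 members, by far less than the spread for Xlr3c, at 0.0774 ± 0.110 CPM in controls against 0.0776 ± 0.0700 in knockouts (SD, n = 3 per group). A positive log2 fold change was found for 54.0% of all genes tested in this cross, and the copies share reads. Only Xlr3a, Xlr3b and Xlr4b passed the filter on low counts. Across this fit 0.0% of transcripts were called higher by edgeR, and DESeq2 called 153. In edgeR's test, 758 of 50855 had an unadjusted p under 0.05 together with a log2 fold change above 1.4. For Xlr3a, controls 1 to 3 gave 0.0870, 0.916 and 0.498 CPM, and knockouts 1 to 3 gave 3.03, 2.05 and 0.327 CPM (log2 fold change 1.84, SE 0.89, adjusted p = 0.735). Knockout 3 lay below controls 2 and 3. Xlr3b had 0.406, 0.384 and 0.615 CPM in the controls and 1.26, 1.08 and 1.50 CPM in the knockouts (1.44, SE 0.54, adjusted p = 0.625). Xlr4b had 0.203, 0.177 and 0.176 CPM in the controls and 0.966, 0.416 and 0.327 CPM in the knockouts (1.60, SE 0.75, adjusted p = 0.725). In Xlr3b and Xlr4b the groups did not overlap; with 3 against 3 epiblasts, a two-sided exact permutation test cannot go below p = 0.10. Of all genes tested in this cross, 7.71% were higher in every knockout than in every control. Only Xlr3b had an unadjusted p under 0.05 in edgeR's test (0.0235), and DESeq2 called 0 of the 3 members. None of them passed the rule on single epiblasts, which 0.857% of genes and 0.57% of transcripts did. Without knockout 3 that rule held for Xlr3a and Xlr5a, without control 2 for Xlr5a alone, and without knockout 2 or control 3 for Xlr3b alone.

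The Xlr5 genes of the Ezh2 cross were low and uneven. Xlr5a had 1, 8 and 0 counts in the controls and 25, 62 and 6 counts in the knockouts, so that knockout 3 lay within the controls. Xlr5b had 0, 5 and 2 counts in the controls and 9, 2 and 5 in the knockouts, with overlap. Xlr5c was not counted in any of the 3 controls and had 9, 2 and 1 counts in the knockouts. For 12 counts against 0, the exact 95% counting interval of the Xlr5c ratio starts at 2.74 and has no upper limit. Of the members that failed the filter, Xlr4c had 0, 1 and 2 counts in controls and 7, 2 and 14 in knockouts, and Xlr3c had 7, 0 and 1 in controls and 3, 0 and 5 in knockouts. Xlr4a had 0, 5 and 9 counts in controls and 7, 9 and 14 in knockouts. Summed over each subfamily, Ezh2-/- epiblasts had 3.02 times the control level of Xlr3, 3.06 times that of Xlr4 and 7.51 times that of Xlr5. The last of these came from 1.18 ± 0.772 CPM in knockouts and 0.157 ± 0.197 CPM in controls (SD, n = 3 each). Ezh2 control 2 and knockout 1 stood apart in visceral endoderm markers, whose 9 genes summed to 455 and 941 CPM there and to 14.6 to 19.9 CPM in the other 4 epiblasts. Control 2 held 8 of the 9 Xlr5a counts of the controls, and knockout 1 the highest Xlr3a level. Without either of them 0 members were called, and the part of these cells in the Xlr values was not tested. Y-linked transcripts were present in all 3 Ezh2-/- epiblasts and in control 2 alone, so sex and genotype largely moved together in this cross, and the part of sex in these differences was not tested within epiblasts that lack Y-linked transcripts. Set against control 2 alone, 5 of the 9 members (Xlr3b, Xlr4a, Xlr4b, Xlr4c and Xlr5c) were higher in all 3 knockouts. The share of all genes with this pattern against the single control was not computed. For Xlr4c and Xlr5c it rested on few counts, down to 2 and 1 in a knockout against 1 and 0 in control 2.

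Whether the 2 knockouts differed in their effect was tested in 1 fit over the 14 epiblasts. None of the 9 members differed at an adjusted p under 0.05, where 0.112% of genes and 0.0561% of transcripts did. The difference in log2 fold change, Ehmt2 minus Ezh2, was 4.87 for Xlr3c (SE 1.97, adjusted p = 0.526) and 3.34 for Xlr5b (SE 1.50, adjusted p = 0.575). These were the members with an unadjusted p under 0.05 (0.0251 and 0.0401), and DESeq2 called 0 of 9. For Xlr5a the difference was 2.16 (SE 1.50, adjusted p = 0.748), or -0.20 without Ezh2 control 2, and for Xlr3b it was -0.39 (SE 0.76, adjusted p = 0.926). The standard errors of the 9 differences were 0.76 to 2.95. The call of Xlr5 genes in the Ehmt2 cross only is therefore not a measured difference between the crosses.

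Of the more distant relatives, 2 of the 5 listed could be tested and neither was called. Xlr, the founding gene of the family, which lies elsewhere on the X chromosome, stood at 1.00, 0.360, 0.577 and 0.361 CPM in Ehmt2 controls 1 to 4, while knockouts 1 to 4 gave 0.364, 0.200, 0.460 and 0.129 CPM. Its log2 fold change was -1.05 (SE 0.63, adjusted p = 0.561), below 0 where each tested member was above it. Sycp3 had a log2 fold change of -0.38 (SE 0.20, adjusted p = 0.499). In the Ezh2 cross the values were 0.64 for Xlr (adjusted p = 0.885) and 0.01 for Sycp3 (adjusted p = 0.998).

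Genes around the cluster were also examined. Within 500 kb of either end, 42 other genes are annotated, and 19 were tested in the Ehmt2 cross, of which 0 were called. A positive log2 fold change was found for 17 of the 19, against 51.1% of all genes tested. Their median was 0.36 (range -0.27 to 2.93) beside 0.01 over all genes. The largest of these values, 2.93, was below those of the Xlr5 genes, Xlr4a (3.17) and Xlr4c (5.14). It was above those of Xlr3a (2.39), Xlr4b (2.06) and Xlr3b (1.06). The first 4 in genomic order, Gabra3 (a GABA receptor subunit), Cetn2 (a centrin of the centrosome), Nsdhl (an enzyme of cholesterol synthesis) and Zfp185, had log2 fold changes of -0.27, 0.42, 0.03 and 0.42. F8a, which lies between Xlr4b and Xlr4c, had 0.44 (SE 0.66, adjusted p = 0.850). The highest value belonged to Pnma5, named here after its value was seen, at 2.93 (SE 0.63, adjusted p = 0.0628). Pnma5 lies at chrX:73033981-73037103, before Xlr4a. Dusp9, also named after its value was seen, had the next highest, 1.46 (SE 0.35, adjusted p = 0.103). In the Ezh2 cross 0 of 18 were called, with a median of 0.23.

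Other gene groups were tested in the same fits. All 5 Magea genes that passed the filter, cancer-testis genes of the X chromosome, were called higher in Ehmt2-/- epiblasts, among them Magea8 (log2 fold change 7.88, adjusted p = 5.19e-05) and Magea10 (8.98, adjusted p = 0.000123). Of 3 tested Rhox genes, homeobox genes of an X-linked reproductive cluster, Rhox5 (5.46, adjusted p = 0.00215) and Rhox7a (8.35, adjusted p = 0.0227) were called. Of 12 tested germline genes on a list of 15, only Asz1 was called (7.87, adjusted p = 3.44e-06), while Ddx4 (1.44, adjusted p = 0.111), Dazl (0.92, adjusted p = 0.670) and the other 9 were not. In the Ezh2 cross 0 of 2 tested Rhox genes and 0 of 13 tested germline genes were called, and 0 Magea genes passed the filter. Thus 4 of 8 tested Xlr genes were called, against 5 of 5 Magea and 1 of 12 germline genes, and these shares were not compared by a test. The tested genes were 5 of 7 listed Magea and 3 of 23 listed Rhox genes. Here too, a gene with near-0 controls could pass the filter only through its knockouts, so these shares depend on which genes were tested.

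The 5 genes whose level followed the mean of the 9 members most closely over the 14 epiblasts, on the log2(CPM + 0.5) scale and among 15204 genes, were Acpp (Pearson's r 0.958), Gm17067 (0.928), Gm773 (0.923), Pdha2 (0.921) and Platr16 (0.921). These correlations are a description: they were picked as the highest, and the genotype groups dominate them. Acpp, which encodes a prostatic acid phosphatase and lies on chromosome 9, had 0.0541 to 0.338 CPM in Ehmt2 controls and 6.92 to 15.2 CPM in Ehmt2-/- epiblasts. In the Ezh2 cross Acpp ranged from 0.174 to 0.827 CPM in controls, and from 1.66 to 4.16 CPM in knockouts. Pdha2, the testis form of the pyruvate dehydrogenase alpha subunit, had 3.89 to 7.81 CPM in Ehmt2-/- epiblasts and at most 0.0262 CPM in their controls.

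The sequence around the start of each gene was described next. Windows of 300 bases around the RefSeq start (250 before and 50 after, GRCm38.p6) held 5 to 8 CpG in the Xlr3 and Xlr4 genes and 16 in Xlr5a and Xlr5b, beside a median of 7 over 32841 promoters. The RefSeq start of Xlr5c lies within an annotated exon, and its window held 1 CpG. The upstream part of this window, chrX:73290516-73290765, directly precedes the Xlr5c coding stretch shown above. It lies inside the annotated gene, which reaches to chrX:73292976. This window is therefore not the sequence before the annotated start of Xlr5c, and its motif and identity values carry that limit. The upstream part of the Xlr5b window, chrX:73148591-73148840, passes the annotated start at 73148796 and overlaps exons of 2 transcripts. That of Xlr3a overlaps an exon of 1 transcript, so the values of Xlr5b and Xlr3a are also limited. Short motifs were sought on both strands of these windows. The E-box CACGTG was in 0 of 9 members and 7.15% of all promoters. The E2F6 motif, searched as TCCCGCC on either strand, was in 0 of 9 members and 11.3% of all promoters. The last motif, TGCGCA, was in all 3 Xlr3 and all 3 Xlr4 windows and in none of the Xlr5 windows, against 7.76% of all promoters. Copies of one subfamily are related in sequence, so these 6 are not independent. One upstream sequence per subfamily is shown, up to the base before the start and with TGCGCA in capitals, to show what lies before genes with and without this motif. They lie at chrX:73191929-73192178 (plus strand) for Xlr3b, chrX:73082508-73082757 (minus) for Xlr4a and chrX:73117703-73117952 (minus) for Xlr5a.
Xlr3b: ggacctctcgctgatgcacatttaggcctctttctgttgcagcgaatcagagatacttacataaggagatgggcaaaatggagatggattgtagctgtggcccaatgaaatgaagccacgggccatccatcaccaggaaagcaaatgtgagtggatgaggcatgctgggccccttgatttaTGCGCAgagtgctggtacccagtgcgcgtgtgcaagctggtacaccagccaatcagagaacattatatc
Xlr4a: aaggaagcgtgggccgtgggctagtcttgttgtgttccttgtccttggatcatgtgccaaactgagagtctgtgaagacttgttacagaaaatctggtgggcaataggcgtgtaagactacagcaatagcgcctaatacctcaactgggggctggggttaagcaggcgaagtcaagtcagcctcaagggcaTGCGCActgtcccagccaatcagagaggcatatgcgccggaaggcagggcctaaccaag
Xlr5a: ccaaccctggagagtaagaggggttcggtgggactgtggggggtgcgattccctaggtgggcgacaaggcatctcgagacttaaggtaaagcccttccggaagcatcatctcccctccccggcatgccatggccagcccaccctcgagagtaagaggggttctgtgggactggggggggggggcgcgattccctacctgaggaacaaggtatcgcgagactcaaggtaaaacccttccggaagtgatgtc
Upstream sequences of the same subfamily were identical at 42.8% to 93.0% of their alignment columns (9 pairs), and those of different subfamilies at 42.1% to 50.2% (27 pairs). The 42.8% belongs to Xlr5a and Xlr5c and rests on the Xlr5c window that lies inside the gene. Xlr3a and Xlr3c, at 48.3%, were within the range of different subfamilies.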

How the data were processed

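RNA-seq of 14 single epiblasts was used; ChIP-seq and bisulfite samples of the series were not analysed here. The authors amplified the RNA, trimmed reads to 40 nt, aligned them to GRCm38 with TopHat2 and counted them with HTSeq-count on each Ensembl release 74 transcript. The deposited values are raw counts without normalisation; strand and multi-mapping settings are not given in the sources used here. Isoforms of a gene overlap and carry similar counts. A transcript missing from a table was given a count of 0, and 2 libraries had a row of unaligned reads (12.6% and 13.3% of their total), which was left out. Names and positions came from GENCODE vM21 (70021 of 72515 transcripts matched), promoters from RefSeq (GRCm38.p6, all 9 members matched).

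Counts were filtered (filterByExpr), scaled with TMM and tested with edgeR's quasi-likelihood test (edgeR 4.0.16, R 4.3.3), each cross by itself, the Ehmt2 cross with a term that separates replicate 4 from replicates 1 to 3, since a column header of the study's supplement sets knockout 4 against control 4, although its methods text names all controls as the reference. p-values were adjusted over all transcripts. DESeq2 1.42.0, other scalings, no filter, 1 transcript per gene, marker covariates, a replicate block and omission of each epiblast were alternatives. The protein-coding transcripts of Xlr3a and Xlr3b, and omissions under the rule on single epiblasts, were added after the data were seen. Standard errors are the log2 fold change over the square root of F. The Ehmt2 epiblasts came from 4 litters and the Ezh2 epiblasts from 3, but which of them shared a litter is not given in the sources used here, and p-values cover the spread between these samples. The scripts were tested on simulated data. Windows, identities and motifs were computed in Python 3.11.15 (Biopython 1.88) by exact match. Named genes were the members, both targeted genes, relatives, neighbours within 500 kb, germline, Rhox and Magea lists, and the 5 most correlated genes. Members and lists were chosen with earlier results of these data known.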

Additional observations from a re-analysis of the deposited data

Results flagged for a closer look

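Among the 22 sets of 4 epiblasts of one gene that were examined, 2 had an epiblast far from the rest by Dixon's criterion. In both sets the other 3 values were 0. Dixon's ratio is then 1 for any count above 0, so the flag says nothing about the size of the deviation. Xlr4c was at 0.0490 CPM in Ehmt2 control 1, from 2 counts, and at 0 in the other 3 controls. Xlr5c was at 0.0262 CPM in Ehmt2 control 3, from 1 count, and at 0 in the other 3 controls. Both values lie under the 3 counts that a count of 0 allows.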

How the results depend on the processing

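The number of members called in the Ehmt2 cross (4) was 2 with the trophoblast marker level as a covariate, 0 with the Y-linked level, 1 without the term that separates replicate 4 and 2 with replicates 1 to 3 alone. Leaving out 1 epiblast gave 1 to 3 calls: 1 (Xlr5a) without control 2, control 3 or knockout 2, 2 without control 1 or knockout 1, 3 or 4, and 3 without control 4. The omissions of control 4 and of knockout 4 both rest on replicates 1 to 3. The log2 fold changes of the members stayed positive under these settings. The replicate block gave 0 calls in the Ehmt2 cross (adjusted p of Xlr5a 0.0653) and 0 in the Ezh2 cross. Deviations of same-numbered epiblasts correlated at 0.061 to 0.416 in the Ehmt2 cross and at -0.180 to 0.230 in the Ezh2 cross. The 0.416 was that of control 4 with knockout 4, while the other pairs with a replicate 4 gave -0.281 to -0.144. Among Ehmt2 replicates 1 to 3, same-numbered pairs gave 0.061 to 0.204 and other pairs 0.0726 to 0.198. These values do not show which epiblasts shared a litter. In the Ezh2 cross the rule on single epiblasts gave 0 to 2 members when 1 epiblast was left out. When 1 epiblast was left out, the difference between the crosses ranged from -0.22 to 1.14 for Xlr3a and from -0.20 to 3.06 for Xlr5a, changing sign in both without Ezh2 control 2, and it changed sign with the protein-coding transcript for Xlr3b (0.33), and the cause was not tested. Of 360 values of single members under other settings, 319 kept their direction and side of the threshold, but most of the 360 were not called in the main fit. The 35 values that lost a call all belonged to the 4 members called in the Ehmt2 cross. Besides the omissions, the call was lost in 7 of 11 settings for Xlr3a and 5 of 10 for Xlr5b. For Xlr5a it was lost in 3 of 10 and for Xlr5c in 2 of 10. Depth limits the members with controls at or near 0 counts, whose fitted fold changes depend on few reads.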
